A study of Mus musculus with 8 samples.

Results

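Whether a Schwann cell myelinates is governed by transcription factors that work against each other, and 8 of their genes were followed here in sciatic nerve. Egr2, Sox10, Pou3f1, Pou3f2, Nab1 and Nab2 make up the promyelin group, and Sox2 and Id2 hold myelination back. All probes that carried one of these gene names in the scanner files were taken, which gave 11 probes for 8 genes, of 55681 probes on the array. Of these, 10 were well above background in the nerve channel on at least 4 of 8 arrays, and all 8 genes entered the comparison, among 15343 gene rows. The 11th, the dimmest of 3 Pou3f2 probes, reached that level on 3 arrays and is given only as a value.

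The nerves came from 4 SOD1G93A transgenic and 4 wild-type (WT) male mice aged 60 days. SOD1G93A mice express a mutant human SOD1 gene and develop a disease like amyotrophic lateral sclerosis; the promoter and founder line of the transgene are not given in the sources used here. Each array compared Cy3-labelled nerve RNA of 1 sample with the same Cy5-labelled RNA pool from the heart, liver and kidney of newborns, both wild type and SOD1G93A. Dyes were not swapped, so a nerve over reference ratio mixes tissue with dye, and these cannot be told apart.

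As background, immature Schwann cells that settle on an axon switch on the POU factors Pou3f1 (Oct6) and Pou3f2 (Brn2), which work with Sox10. These induce Egr2 (Krox20), the zinc finger factor that turns on myelin protein and lipid genes. Nab1 and Nab2 bind Egr proteins as corepressors and are needed for Egr2 to work in myelination. Sox2 and Id2 are high in immature and in injured Schwann cells and fall as Egr2 rises; Jun and Egr2 likewise oppose each other.

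The sequences that carry the measurements come first, with their positions on mouse build mm9 as the scanner files give them. Shown 5′ to 3′ are bases 31 to 60 of the 60-base probes for the 2 genes whose groups did not overlap and for Sox10. Capitals mark AATAAA, the hexamer of polyadenylation signals, which was present in 1 of the 11 member probes, that of Sox10. The Egr2 probe lies at chr10:67004798-67004857 on the plus strand, the Sox2 probe at chr3:34550773-34550832 on the plus strand and the Sox10 probe at chr15:78985518-78985577 on the minus strand. Exon and UTR annotation on that build was not analysed here.
Egr2 probe: tagttgtggagagagaaacaatctattcta
Sox2 probe: gagaatttgccaatatttttcgaggaaagg
Sox10 probe: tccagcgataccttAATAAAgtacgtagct

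The remaining probes used for a gene lie at chr4:124337692-124337751 on the plus strand for Pou3f1, chr4:22411520-22411579 on the minus strand for Pou3f2, chr1:52515132-52515191 on the minus strand for Nab1, chr10:127098009-127098068 on the minus strand for Nab2 and chr12:25778904-25778963 on the minus strand for Id2. A second Nab2 probe lies at chr10:127101413-127101472. The other Pou3f2 probes lie at chr4:22413669-22413728 and chr4:22414031-22414090.

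The factors also touch one another's genes, so the 250 bases before each start site in the RefSeq promoter table (GRCm38.p6) were searched on both strands for 5 motifs. These were the CArG box of serum response factor, the Egr motifs GCGTGGGCG and GCGGGGGCG, the Sox-type motif AACAAAG and the octamer ATGCAAAT read by POU factors. Of the members, 6 had at least 1 entry in that table, and Sox10 and Pou3f1 were not matched. Egr2 had 5 entries with different start sites and each other matched member 1, so Egr2 had more windows in which to match. Among them they held the octamer, found in 1.6% of 32851 windows, and 2 CArG boxes, found in 1.47%; no window held both boxes, which lie before different start sites. Nab1 held GCGTGGGCG at 2 places, found in 0.536% of windows, and GCGGGGGCG at 1 place, found in 2.57%. AACAAAG occurred in 5.03% of windows and in none of the 6 members' windows. All matches but that of GCGGGGGCG are shown in windows of 30 bases, read in the direction of the gene, with the motif in capitals; the first Nab1 match reads GCGTGGGCG on the opposite strand. GC content before the Nab1 start was 80.8%, against a median of 52.4% over all windows, and its part in these matches was not tested. None of the matches overlapped one of another motif, and a match describes letters only.
Egr2 octamer, chr10:67537731-67537760: gccaagcccgtATGCAAATtggccatgtga
Egr2 CArG box, chr10:67537787-67537816: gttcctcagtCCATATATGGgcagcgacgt
Egr2 CArG box, chr10:67537484-67537513: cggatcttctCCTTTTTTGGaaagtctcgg
Nab1, chr1:52500570-52500599, minus strand: gccccgcggcCGCCCACGCcgggatctgcg
Nab1, chr1:52500538-52500567, minus strand: actcggccgcGCGTGGGCGggagccggagc

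Of the arrays as a whole, 35.5% to 41.7% of spots were well above background in Cy3, 0 spots were saturated, and the number of arrays limits the precision. All 8 arrays lay on 1 slide, and the first position number there was shared within a genotype, so its effect and that of genotype cannot be told apart. In this tissue, labelled sciatic nerve, 9 of 9 Schwann cell markers were measured. Array 1 of each group stood apart: the median Cy3 signal was lowest on SOD1G93A replicate 1, at 377, and highest on WT replicate 1, at 734. Skeletal muscle markers, of which 7 of 8 were measured, had a mean deviation from -1.12 to -0.85 on the SOD1G93A arrays, against -0.84 to 3.15 on the WT arrays, with the high values on WT replicates 1 and 2. For Sod1 itself the mouse probe gave a difference of -0.17 ± 0.11 (SE) and a limma adjusted p of 0.594, and whether it sees the human transgene was not tested.

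With the processing used here, Egr2 was lower and Sox2 higher on every SOD1G93A array than on any WT array. The amounts were modest and did not pass the threshold once all genes were taken into account. The other 6 members overlapped between genotypes. Of the 8 members, 0 were called by limma at a Benjamini-Hochberg adjusted p under 0.05, where 0.163% of all rows were called. At an unadjusted p under 0.05, 2 members passed, Egr2 and Sox2, against 11.4% of all rows. The same 2 of 8 had groups that did not overlap, against 7.94% of all rows, with Sox2 higher, as in 3.65% of rows, and Egr2 lower, as in 4.3%. With the 6 arrays numbered 2 to 4 these 2 again stayed apart, as 24% of rows then did, and with the Cy3 channel alone 0 members did, against 8.47% of rows. Under the other sets of values compared, the groups of Egr2 overlapped and those of Sox2 did not. Values below are log2 ratios of nerve over reference unless another scale is named, and errors are SD with n = 4 per group or the SE of the limma fit. In whole nerve, fewer Schwann cells and less RNA per cell cannot be told apart.

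**Figure D1:**
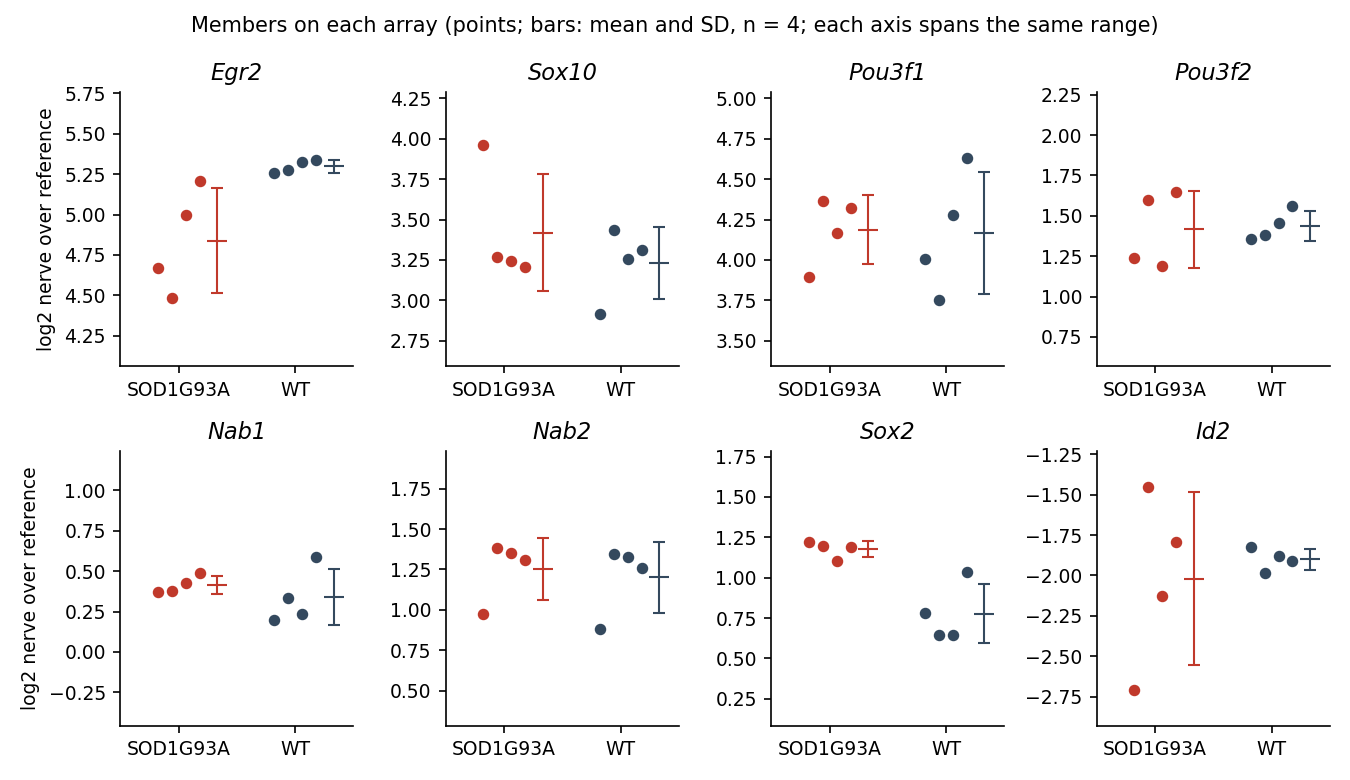
Log2 ratio of nerve over reference for the 8 members, each panel spanning the same range of log2 units around its own centre. Points are the 4 SOD1G93A arrays (left) and 4 WT arrays (right) in replicate order, and bars give mean and SD. Egr2 lies at 4.48 to 5.21 in SOD1G93A and 5.25 to 5.34 in WT, and Sox2 at 1.1 to 1.22 in SOD1G93A and 0.64 to 1.03 in WT.

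Sox10 is the factor that defines the Schwann cell lineage and works with Egr2 on myelin genes. Its ratio was 3.96, 3.27, 3.24 and 3.20 on the SOD1G93A arrays, against 2.92, 3.44, 3.25 and 3.31 on the WT arrays. A single SOD1G93A array, replicate 1, was high, a single WT array, replicate 1, was low, and the other 6 lay close together. The difference was 0.19 ± 0.18 (SE), with a 95% interval from -0.22 to 0.60 and a limma adjusted p of 0.717. Without SOD1G93A replicate 1 it was 0.01.

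Pou3f1 induces Egr2 as myelination begins and is then turned down in the mature nerve. It read 3.90, 4.37, 4.17 and 4.32 in SOD1G93A, against 4.01, 3.75, 4.28 and 4.63 in WT. The groups overlapped fully, and the highest and the lowest values were both WT. The difference was 0.02 ± 0.18 (SE), with an interval from -0.40 to 0.44 and a limma adjusted p of 0.975.

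Pou3f2, which overlaps Pou3f1 in function, gave a weak signal. Its brightest probe read 1.24, 1.60, 1.19 and 1.64 in SOD1G93A, against 1.36, 1.38, 1.45 and 1.56 in WT. The SOD1G93A values lay on both sides of the WT values, for a difference of -0.02 ± 0.12 (SE) and a limma adjusted p of 0.963. The reference channel was not well above background on any array for all 3 Pou3f2 probes, so the ratio to the reference is a bound. By that bound the brightest probe was at least 2.57-fold higher in nerve than in reference in SOD1G93A and at least 2.62-fold in WT. The bound takes each array's lowest reference signal that was well above background, or the probe's own where that was higher.

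The other kept Pou3f2 probe was well above background in Cy3 on 2 SOD1G93A and 3 WT arrays. It read 1.59, 0.86, 0.50 and 0.70 in SOD1G93A, against 0.57, 0.42, 0.66 and 0.97 in WT, a difference of 0.26 ± 0.22 (SE) with a limma adjusted p of 0.695 over probes. Its sign was opposite to that of the brightest probe, and neither passed. The dimmest probe, well above background on 2 SOD1G93A arrays and 1 WT array, read 0.24 to 0.70 in SOD1G93A and 0.25 to 0.60 in WT.

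Egr2, the factor whose loss stops myelination, read 4.67, 4.48, 5.0 and 5.21 in SOD1G93A, against 5.25, 5.27, 5.33 and 5.34 in WT. All 4 SOD1G93A values were below the lowest WT value, but the nearest were only 0.05 apart. The means were 4.84 ± 0.32 in SOD1G93A and 5.30 ± 0.04 in WT (SD, n = 4 each), so the spread was wide in SOD1G93A and narrow in WT. The difference was -0.46 ± 0.15 (SE), a level 0.727 times that of WT, with an interval from -0.79 to -0.13. The unadjusted p was 0.0114 and the limma adjusted p 0.287.

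In the nerve channel alone, quantile normalized, the Egr2 difference was -0.45 ± 0.15 (SE), with a limma adjusted p of 0.297. Uncorrected intensities also carry the overall signal of each array, which was lowest on SOD1G93A replicate 1 and highest on WT replicate 1. Uncorrected Cy3 intensity for Egr2 was 2359, 3390, 4510 and 5012 in SOD1G93A, against 6633, 4482, 5585 and 6032 in WT, while the Cy5 intensity of the reference stayed between 52.9 and 68.8 on the 8 arrays. With the Cy3 channel alone, quantile normalized, the log2 values of Egr2 were 11.83, 11.56, 12.12 and 12.25 in SOD1G93A, against 12.37, 12.23, 12.41 and 12.52 in WT. There the groups overlapped, as they did with the Agilent processed signals, a normexp offset of 10, median centring, scale normalization and the series table; they stayed apart with the 6 arrays. In the series table SOD1G93A replicate 4, at 6.72, was the highest of the 8 arrays, above the WT range of 6.52 to 6.71. The direction held in all 22 alternatives, with limma adjusted p from 0.186 to 0.9997. Many of these could not reverse it, since they dropped or reweighted arrays of groups that did not overlap, or kept the same values. Muscle markers were highest on WT replicates 1 and 2, where Egr2 was 5.25 and 5.27, against 5.33 and 5.34 on the other WT arrays. Those other arrays had a mean muscle marker deviation of -0.84 and -0.60, against -1.12 to -0.85 on the SOD1G93A arrays. With the 6 arrays numbered 2 to 4 the Egr2 difference was -0.42, but WT replicate 2, at a muscle deviation of 2.27, is among them. The part of muscle in the Egr2 difference was not tested.

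For the Egr corepressor genes both differences were small and above 0, where that of Egr2 was below it. Nab1 read 0.37, 0.38, 0.42 and 0.49 in SOD1G93A, against 0.20, 0.34, 0.23 and 0.59 in WT. The SOD1G93A arrays were tightly grouped within the WT range. The difference was 0.08 ± 0.10 (SE), with an interval from -0.15 to 0.30 and a limma adjusted p of 0.797. Nab2 read 0.97, 1.39, 1.35 and 1.31 in SOD1G93A, against 0.88, 1.34, 1.32 and 1.26 in WT. In both groups replicate 1 was the low array and the other 3 were alike. The difference was 0.05 ± 0.13 (SE), with an interval from -0.25 to 0.35 and a limma adjusted p of 0.899, and the second Nab2 probe gave 0.11 ± 0.17 (SE).

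Sox2, which blocks myelin genes when forced on in Schwann cells, read 1.22, 1.20, 1.1 and 1.19 in SOD1G93A, against 0.78, 0.64, 0.65 and 1.03 in WT. All 4 SOD1G93A arrays lay above all 4 WT arrays, and WT replicate 4 came nearest. The means were 1.18 ± 0.05 in SOD1G93A and 0.78 ± 0.18 in WT (SD, n = 4 each). The difference was 0.40 ± 0.10 (SE), a level 1.32 times that of WT, with an interval from 0.18 to 0.63. The unadjusted p was 0.00287 and the limma adjusted p 0.185, which was rank 235 of the 15343 rows by p.

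The Sox2 signal was dim in both channels. Uncorrected Cy3 intensity was 232, 303, 253 and 282 in SOD1G93A, against 232, 199, 229 and 283 in WT, and local background was 42.0 to 53.0. The reference was well above background on 7 of 8 arrays, at 33.5 to 44.6, and read 30.2 on the 8th, SOD1G93A replicate 3. After background subtraction it read 15.0, 22.1, 11.2 and 18.2 in SOD1G93A, against 13.5, 18.3, 24.6 and 23.4 in WT. The pool was the same on every array, and the part of these readings in the ratio difference was not tested. In this range the size of the difference depended on the background correction: it was 0.63 with a normexp offset of 10, 0.87 with the Agilent processed signals and 0.90 in the series table. With the Cy3 channel alone it was 0.42, and the groups overlapped; under the 7 other sets of values compared, the groups of Sox2 stayed apart. The lowest limma adjusted p of the 22 alternatives was 0.0508, with array weights, and the highest was 0.9997.

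Id2, an inhibitor of DNA-binding protein that pairs with basic helix-loop-helix factors, had a difference opposite in sign to that of Sox2. It read -2.71, -1.45, -2.13 and -1.79 in SOD1G93A, against -1.83, -1.98, -1.88 and -1.91 in WT. The SOD1G93A arrays surrounded the WT arrays on both sides, with an SD of 0.54 in SOD1G93A and 0.07 in WT. The difference was -0.12 ± 0.23 (SE), with an interval from -0.63 to 0.39 and a limma adjusted p of 0.866. The lowest array, SOD1G93A replicate 1, was also the one with the lowest median signal, and without it the difference was 0.11.

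**Figure D2:**
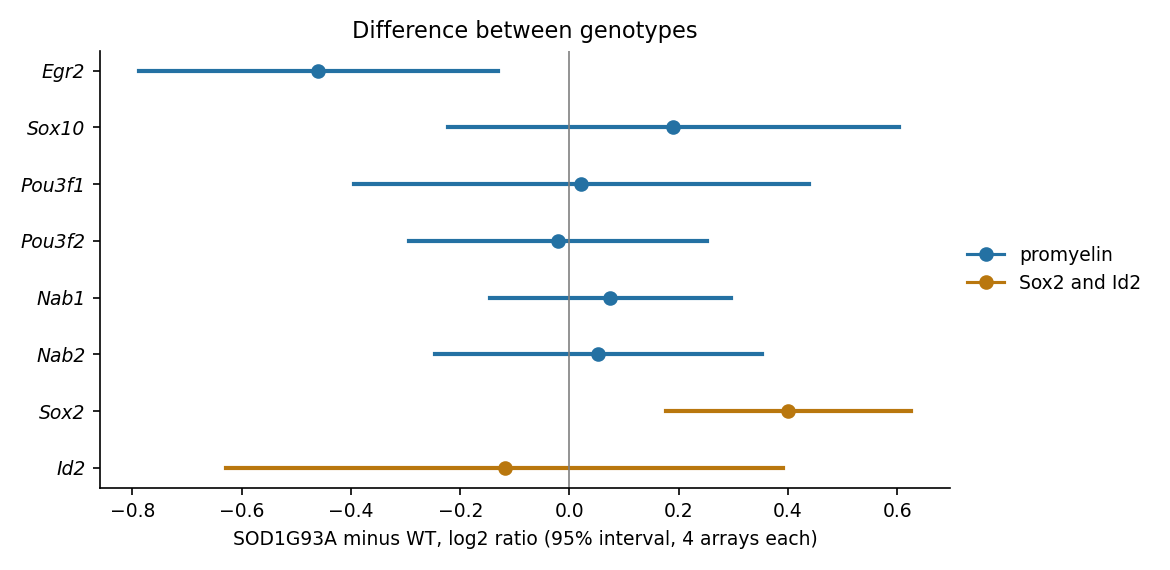
Difference in log2 ratio, SOD1G93A minus WT, with its unadjusted 95% interval from the limma fit on 4 arrays per group. The intervals of Egr2 (-0.79 to -0.13) and Sox2 (0.18 to 0.63) leave out 0 before adjustment over all genes, and those of the other 6 members include it.

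The promyelin group was then set against Sox2 and Id2 through deviations of each gene from its own mean over the 8 arrays. The mean promyelin deviation less that of Sox2 and Id2 was 0.17, -0.38, -0.02 and -0.10 on the SOD1G93A arrays, against -0.13, 0.16, 0.17 and 0.13 on the WT arrays. These overlapped, and the groups differed by -0.16, a description with no test. The promyelin mean alone moved by -0.02 and the mean of Sox2 and Id2 by 0.14. Within each side the members differed in sign: 2 of 6 promyelin genes, Egr2 and Pou3f2, and 1 of 2 inhibitors, Id2, were below WT. Taking Egr2 and Sox2 alone, Egr2 less Sox2 was -0.64, -0.80, -0.20 and -0.08 on the SOD1G93A arrays, against 0.38, 0.54, 0.59 and 0.21 on the WT arrays. That pair was picked for its difference and supports nothing further.

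**Figure D3:**
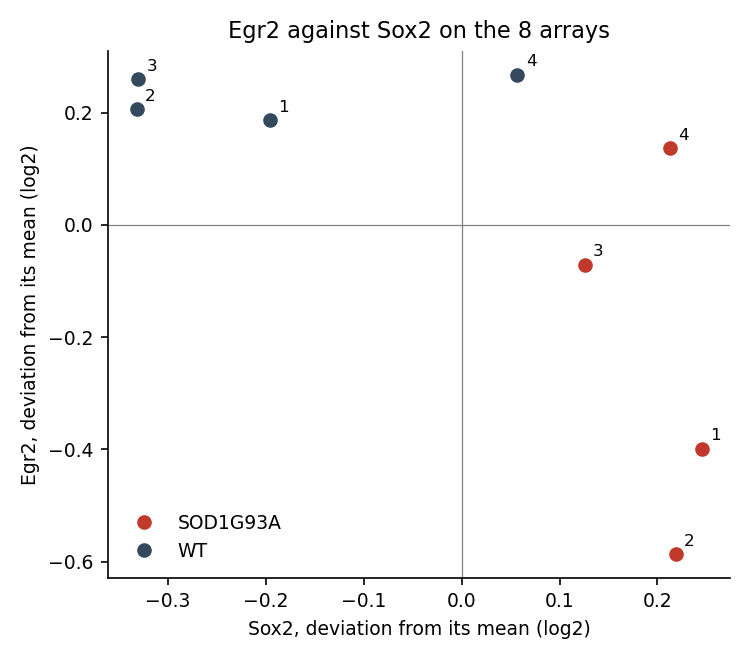
Deviation of Egr2 (vertical) and of Sox2 (horizontal) from the gene's mean over 8 arrays, log2 units, with replicate numbers beside the points. The SOD1G93A arrays lie to the right of the WT arrays and below them, and Egr2 ranges from -0.59 to 0.14 in SOD1G93A against 0.19 to 0.27 in WT.

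Against the neonatal pool, Egr2 stood out most. Its ratio averaged 5.07 ± 0.33 (SD, n = 8), higher than 99.9% of rows. Pou3f1 averaged 4.18 ± 0.28 and Sox10 3.32 ± 0.30, above 99.5% and 98.9% of rows. Nab2 averaged 1.23 ± 0.19, Sox2 0.98 ± 0.25 and Nab1 0.38 ± 0.13. Pou3f2, at 1.43 ± 0.17, has no place in this order, since its reference signal was at background and its ratio is a bound. Id2 was the single member below the pool, at -1.96 ± 0.36, with 2.63% of rows lower. On all 8 arrays Egr2, Pou3f1, Sox10 and, by its bound-limited ratio, Pou3f2 exceeded 1, as 8.96% of rows did, and Id2 stayed under -1, as 5.81% did. In the order of ratios the ranges over 8 arrays of neighbours overlapped for Pou3f1 and Egr2, Sox10 and Pou3f1, and Sox2 and Nab2, and they did not overlap for Nab2 and Sox10, Nab1 and Sox2, or Id2 and Nab1. The place of Sox2 held only for this correction: with the Agilent processed signals it averaged 2.68, above Nab2 at 1.16. For the dim reference signals of Egr2, Pou3f1, Pou3f2 and Sox2 the size of the ratio depended on the correction: the Egr2 ratio was 5.84 with a normexp offset of 10 and 6.47 with the Agilent processed signals.

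The 2 channels behaved differently for Sox10 than for the other members. Background-subtracted Cy3 intensity of Sox10 was 4744, 9918, 8357 and 8364 in SOD1G93A, against 8456, 6206, 8219 and 7804 in WT. Its Cy5 intensity, from a pool that was the same on every array, was 265, 623, 533 and 563 on the SOD1G93A arrays, against 553, 429, 547 and 523 on the WT arrays. The Cy5 signal thus followed the Cy3 signal from array to array, at 5.59% to 6.91% of it. Pearson's r of the log2 intensities over 8 arrays was 0.98 (0.96 without the 2 arrays farthest from the median Cy3, Spearman's rho 0.95). Both signals share spot and array. Over 15340 rows the median r was 0.10, and 0.261% of rows had an r as high as that of Sox10. For Egr2, Pou3f1, Pou3f2, Nab1, Sox2 and Id2 r lay between -0.27 and 0.29, and for Nab2 it was 0.62; without the 2 farthest arrays Pou3f1 reached 0.83. Where the reference channel moves with the nerve channel, the ratio can hide a difference between nerves, and the source of this signal was not tested.

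**Figure D4:**
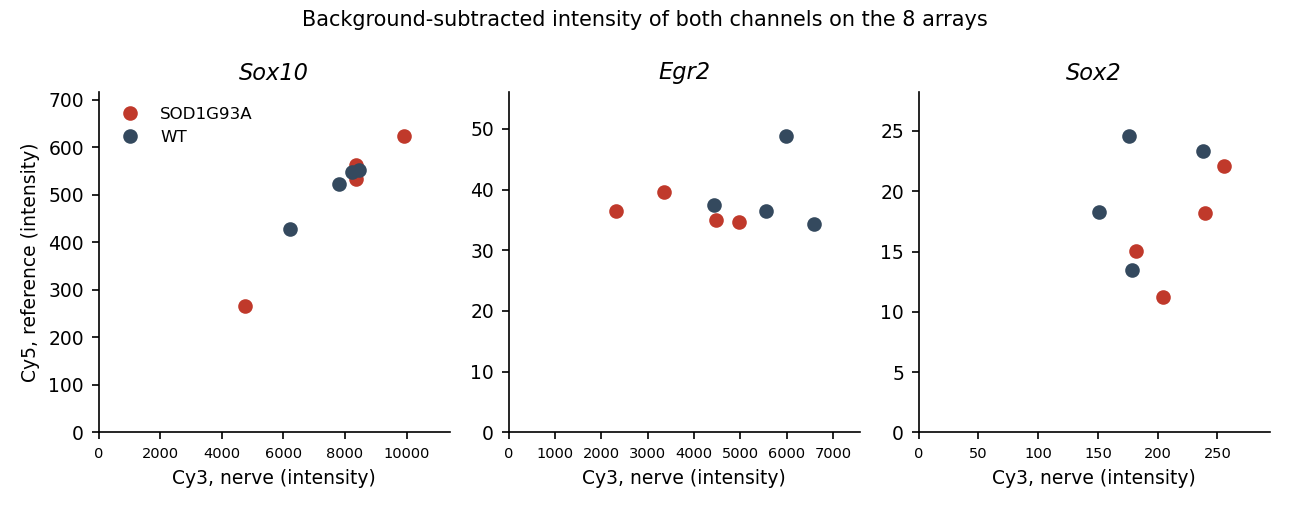
Background-subtracted intensity of the reference (Cy5, vertical) against nerve (Cy3, horizontal), linear axes from 0, 1 point per array. Cy5 follows Cy3 for Sox10, with r of 0.98 on the log2 scale, and not for Egr2 and Sox2, with r of 0.11 and 0.26.

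Target genes of Egr2 and Sox10, not all of them myelin genes, were taken as a list of 26, all of which were measured. By limma 0 of 26 passed in either direction, with 19 above WT and 7 below, and the median difference was 0.08, against -0.02 over all rows. At an unadjusted p under 0.05, 4 passed, where 11.4% of all rows did, and the 3 with the smallest p follow. Mpp6, a scaffold protein of myelin membranes, was at 0.50 ± 0.15 (SE, limma adjusted p 0.25). Erbb3, a neuregulin receptor, was at 0.30 ± 0.10 (adjusted p 0.32), from a probe well above background in Cy3 on only 2 SOD1G93A and 2 WT arrays. Cdkn1c, a cell cycle inhibitor, was at -0.36 ± 0.15 (adjusted p 0.387). The list's median changed sign with the arrays used: it was -0.16 with the 6 arrays numbered 2 to 4, -0.08 with array weights, -0.04 without SOD1G93A replicate 1 and -0.02 without WT replicate 1, and 0.18 without WT replicate 2. It was 0.15 without SOD1G93A replicate 3 and 0.13 without SOD1G93A replicate 4. Of these genes 16 of 26 had an r of 0.8 or more between Cy5 and Cy3, against 3.38% of all rows, so the ratio carries for them the limit given for Sox10.

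In the Cy3 channel alone the same list had 16 genes below WT and 10 above, a median of -0.03 against 0.01 over all rows, and again 0 called by limma, where 0.222% of all rows were called. At an unadjusted p under 0.05, 4 passed in that channel, where the share of all rows was not worked out. For Sox10 the Cy3 channel alone gave 0.14 ± 0.11 (SE), with a limma adjusted p of 0.61.

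Of 16 other regulators that favour myelination, 15 were measured and 0 passed, with 2 at an unadjusted p under 0.05, 12 being above WT and 3 below, with a median of 0.09. Zeb2, which represses inhibitors of myelination including Sox2, was at 2.51 ± 0.07 in SOD1G93A and 2.07 ± 0.24 in WT (SD, n = 4 each), a difference of 0.44 ± 0.12 (SE) with a limma adjusted p of 0.208. Chd4, the remodelling enzyme of the NuRD complex that Nab proteins recruit, was at 0.84 ± 0.20 in SOD1G93A and 0.45 ± 0.06 in WT, a difference of 0.39 ± 0.11 (SE) with a limma adjusted p of 0.217. The groups of both genes did not overlap, 2 of 15 where 7.94% of all rows did not, and 11.4% of all rows had an unadjusted p under 0.05. Rxrg, a nuclear receptor, followed with 0.27 ± 0.15 (SE).

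Of 15 other inhibitors of myelination 10 were measured, of which 1 was higher and 0 lower at the threshold, where 0.0717% of all rows were called higher and 0.0912% lower, with 4 above WT, 6 below and a median of -0.07. The gene called was Jun, the factor that drives the repair state of injured Schwann cells. It read 0.66, 0.20, 0.75 and 0.75 in SOD1G93A, against -0.48, -0.34, -0.47 and -0.79 in WT, with a wide gap between the groups. The difference was 1.11 ± 0.15 (SE), with a limma adjusted p of 0.0394. It lost the call in 10 of 21 alternatives with differences from 1.02 to 1.24 over all 21, among them each leave-one-out fit except those without SOD1G93A replicate 1 or 2, the replicate block (adjusted p 0.14) and the Agilent processed signals (adjusted p 0.0704). Egr1, the Egr paralog of immature Schwann cells, read 2.09, 0.64, 3.89 and 3.76 in SOD1G93A, against 0.70, 0.31, 0.55 and 0.00 in WT. SOD1G93A replicate 2 lay inside the WT range, and the difference of 2.21 ± 0.63 (SE) had a limma adjusted p of 0.239. Hey1, a Notch target, was at -0.20 ± 0.10 (SE).

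Of 12 paralogs of the members 6 were measured and 0 passed, with 3 on each side of WT and a median of -0.01. Egr1 was the 1 at an unadjusted p under 0.05, where 11.4% of all rows were. Beside Egr1 these included Id1 at -0.30 ± 0.21 (SE) and Id3 at -0.10 ± 0.08 (SE). Sox1 and Sox3, the closest relatives of Sox2, and Egr3, Egr4, Pou3f3 and Pou3f4 were not above background on enough arrays. Schwann cell markers were above WT for 9 of 9 genes, with a median difference of 0.13 and 0 called. At an unadjusted p under 0.05 there were 2 of them, against 11.4% of all rows. Their summed level, as a mean deviation, was 0.50 on SOD1G93A replicate 1 and -0.32 on WT replicate 1, and from -0.05 to 0.01 on the other 6 arrays. Macrophage markers, 7 of 8 measured, ranged from -0.21 to 0.60 on SOD1G93A arrays and from -0.44 to -0.17 on WT arrays, with 6 of 7 above WT, and 0 called. Adipocyte markers were below WT for 7 of 7 measured (median difference -0.98) and endothelial markers for 7 of 8 (median -0.47). Smooth muscle and pericyte markers were below WT for 5 of 6 (median -0.96), with 0 called in each of these lists. Groups did not overlap for 3 of 8 endothelial, 3 of 7 macrophage and 2 of 9 Schwann cell markers. The same held for 1 of 7 adipocyte and 0 of 6 smooth muscle and pericyte markers, against 7.94% of all rows. Of skeletal muscle, macrophage and endothelial markers, 5 of 7, 5 of 7 and 5 of 8 had an unadjusted limma p under 0.05. So did 4 of 6 smooth muscle and pericyte and 3 of 7 adipocyte markers, against 11.4% of all rows. For fibroblast markers it was 1 of 6, with groups not overlapping for 2, and for perineurial markers 0 of 4. The part of these markers in the members' values was not tested.

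**Figure D5:**
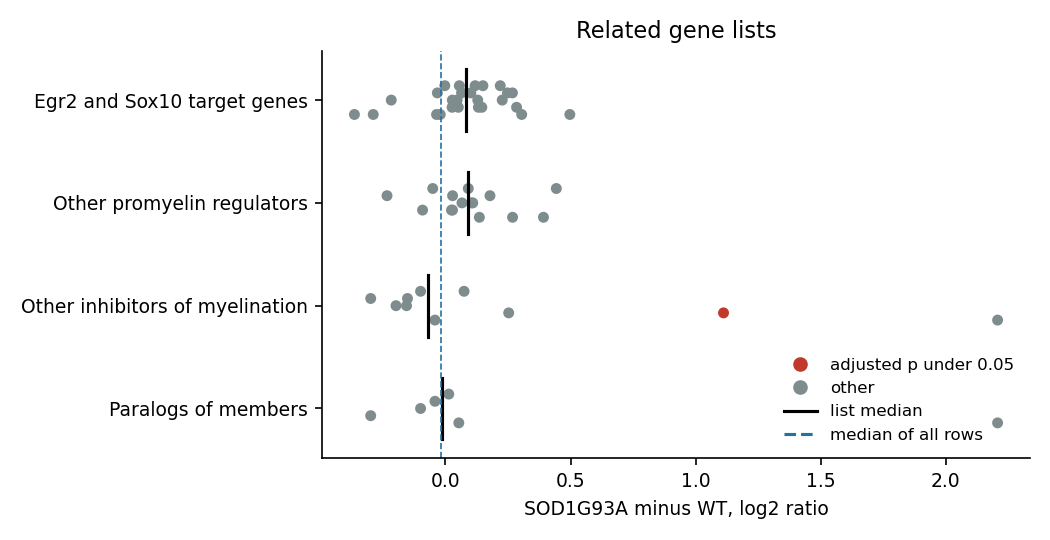
Difference in log2 ratio, SOD1G93A minus WT, of each measured gene in 4 lists, with the list median as a black bar and the median of all rows as a dashed line. Jun, at 1.11, is the gene called, Egr1 at 2.21 is not, and the medians lie between -0.07 and 0.09.

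Over the 8 arrays, the named genes with ratios most like those of Egr2 were Coil and Tiparp, with Pearson's r of 0.97 each. For Sox2 they were 9930021J03Rik (0.99) and Kpna4 (0.98), for Sox10 C030009H01Rik and Trip4 (0.99 each) and for Id2 Mrps31 (0.97) and Sf3b4 (0.96). Pou3f1 was closest to 9330195I24Rik (0.95) and Msantd4 (0.94), Pou3f2 to Wrb (0.99) and Uba3 (0.95), Nab1 to Arl2bp (0.93) and Dus4l (0.92), and Nab2 to Plxnb3 (0.99) and BF584559 (0.98). None of these 16 was a member of another list here or passed the threshold. They are the best of many rows on few arrays that share slide and reference, and they are given as a description.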

How the data were processed

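Per the file headers, Agilent Feature Extraction 11.5.1.1 wrote the deposited scanner files, with linear Cy3 and Cy5 intensity, local background and other columns such as flags. Per the submitters' processing notes it was 11.0.1.1, and limma is named with no role. The values deposited for the whole series are log10 Cy5 over Cy3, equal to the scanner files' own on every spot, with a median of 0; its sign was turned for use here as an alternative. Mean intensity was corrected by normexp (offset 50) and loess within arrays. Control spots were given no weight in the loess, flagged spots were left out, and spots of a probe were averaged. Of 55681 probes, 19838 were kept, and the brightest kept probe stood for each gene name of the array's design. The log2 ratio of Cy3 over Cy5 was compared between genotypes with lmFit and eBayes of limma 3.58.1 (R 4.3.3, with tables read by data.table, version 1.17.8), 2-sided, with Benjamini-Hochberg adjustment over 15343 rows. The procedure was tested on simulated data. The labels number the arrays but do not say whether the numbers pair mice. Same-numbered deviations correlated at -0.16, 0.04, -0.11 and 0.10, which cannot decide it. Up to 3 genes of a list are named, by smallest p; a gene is counted in its lists but not reported here by name. The members and lists were chosen with earlier results of these data known. The 4 arrays of a group are biological replicates, per the series' design text.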

Additional observations from a re-analysis of the deposited data

Results flagged for a closer look

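Sox10 on SOD1G93A replicate 1, at a log2 nerve over reference ratio of 3.96, stood far from the other 3 SOD1G93A arrays, which lay between 3.20 and 3.27. The gap made up 0.918 of the group's whole range. Chance alone sets apart about 1 in 20 groups of 4 by this measure, and 20 groups were examined, 1 for each of 10 kept member probes and each genotype. On this array the background-subtracted Sox10 signal was the lowest of the 8 in both channels, and so was the median Cy3 signal of the array. Quantile normalized, its log2 Cy3 value for Sox10 was 12.77, above 12.71 and 12.73 on WT replicates 1 and 2.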

How the results depend on the processing

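The count of members called was 0 in all 22 alternatives, and Egr2 and Sox2 kept their direction in each. For both genes, fits that dropped or reweighted arrays, or kept the same values, could not reverse the direction. Of all rows, 25 were called as reported, 5 with the Agilent processed signals, 1 with median centring, 16 with no filter on dim probes, 417 with array weights, 7 with the series table, 234 with the 6 arrays numbered 2 to 4, and 3 to 180 in the leave-one-out fits, the highest being without SOD1G93A replicate 1. Array weights were lowest for that array, at 0.17. With the replicate number as a block, 1 row was called, and no member's call changed. The cause of these shifts was not tested.

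Members whose groups did not overlap numbered 1 (Sox2 each time) with the Agilent processed signals, a normexp offset of 10, scale normalization and the series table, where 7.57%, 7.89%, 7.65% and 7.65% of all rows did not overlap. They numbered 2 with median centring, Sox10 and Sox2, both higher, against 2.31% of rows, and 2 with the 6 arrays, Egr2 and Sox2, against 24%. With the Cy3 channel alone they numbered 0, against 8.47%. These comparisons, the lists and Jun under other settings were added after seeing the data. The shift of the promyelin genes against Sox2 and Id2 ranged from -0.25 to -0.06 in the leave-one-out fits and was -0.37 in the series table.

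Members near 0 changed sign. Pou3f2 was 0.062 with a normexp offset of 10, 0.040 with Cy3 alone, 0.12 as the mean of its probes, 0.013 with the 6 arrays, 0.26 on its second probe and from -0.10 to 0.056 in the leave-one-out fits. Pou3f1 was -0.020 with median centring, -0.049 with scale normalization and from -0.12 to 0.18 in the leave-one-out fits. Nab1 was -0.036 with Cy3 alone. Sox10 was -0.013 with array weights and -0.10 with the 6 arrays. Id2 was 0.049 with array weights, 0.14 with the 6 arrays and from -0.31 to 0.11 in the leave-one-out fits. Nab2 ranged from -0.054 to 0.15 in the leave-one-out fits.

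Ratios against the dim reference moved with the correction. With the Agilent processed signals, a normexp offset of 10 and the series table in turn, Egr2 was 6.47, 5.84 and 6.47, Pou3f1 5.66, 4.96 and 5.67, Pou3f2 5.91, 2.60 and 5.25, and Sox2 2.68, 1.58 and 2.50. The second probes gave 0.78 for Pou3f2 and 0.47 for Nab2. The median of the other promyelin regulators was 0.023 with array weights and 0.032 with the 6 arrays, and that of the target genes -0.16 with the 6 arrays, -0.076 with array weights, -0.035 with Cy3 alone and from -0.043 to 0.18 in the leave-one-out fits.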
